A study of Mus musculus with 62 samples.

Results

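The nuclear-encoded genes of the mitochondrial respiratory chain were examined in mouse hearts with and without RPL3L and in C2C12 myoblasts that overexpress RPL3 or RPL3L. Genes were selected by name alone: those whose symbols begin with Nduf, Uqcr, Sdh, Cox followed by a digit, or Atp5, without pseudogenes, and each was represented by its transcript with the highest mean count. This rule found 36 genes (65 transcripts) among the 10476 genes in the table of counts. GENCODE M21 lists 106 protein-coding genes under the same rule, of which these 36 are all those on the plus strand. The other 70 lie on the minus strand and were not analysed here, because the table of counts holds no matched transcript of that strand. All 23662 transcripts matched to GENCODE M21 are on the plus strand. Shares of counts, ranks and medians over all genes or transcripts below therefore cover plus-strand genes almost alone and not the whole transcriptome. The 36 genes comprise 1 core subunit, 11 supernumerary subunits and 4 assembly factors of complex I, 1 subunit and 1 assembly factor of complex II, 2 subunits of complex III, 8 subunits (isoforms included) and 4 assembly factors of complex IV, 3 subunits of ATP synthase (complex V), and Atp5s, whose product is a coupling factor of ATP synthase and not one of its structural subunits.

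RPL3L is a paralog of RPL3, a protein of the large ribosomal subunit, that is made in heart and skeletal muscle. Hearts came from male C57BL/6J mice that were either Rpl3l+/+ (labelled WT) or Rpl3l-/- (labelled Rpl3l KO), the latter carrying a germline deletion of exon 2 made with CRISPR-Cas9. The C2C12 line, which was derived from mouse muscle and grows as myoblasts, had been infected with a retrovirus made from the pCX4/puro vector that was empty (control) or carried RPL3 (RPL3 OE) or RPL3L (RPL3L OE). All C2C12 cells were puromycin-selected and kept as myoblasts, and the deletion in the mice is present in every tissue. RNA-seq measures mRNA, Ribo-seq sequences the mRNA fragments covered by single ribosomes (monosomes), Disome-seq sequences the longer fragments covered by pairs of adjacent ribosomes, and m6A-seq sequences RNA pulled down for N6-methyladenosine. RNA-seq, Ribo-seq and Disome-seq of the heart had 4 mice per genotype, m6A-seq of the heart had 3, and C2C12 cells had 3 cultures per group in RNA-seq as in Ribo-seq. Nothing in the labels says whether the C2C12 cultures came from separate infections, so that p-values there may measure technical spread.

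The respiratory chain lies in the inner mitochondrial membrane. Complexes I and II pass electrons from NADH and succinate to ubiquinone, complex III passes them on to cytochrome c, and complex IV (cytochrome c oxidase) gives them to oxygen. Complexes I, III and IV pump protons, and ATP synthase uses the resulting gradient to make ATP. Most subunits are encoded in the nucleus, translated by cytosolic ribosomes and imported into the mitochondrion, while assembly factors help to build the complexes without remaining in them. Cardiomyocytes depend on this pathway for nearly all of their ATP and are packed with mitochondria.

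Values are given as CPM (counts scaled by the library's total) and, between genes, as CPM per kilobase of transcript. Total counts per heart library ranged from 3594696 to 22425296 for RNA-seq, from 1606700 to 3192090 for Ribo-seq and from 39016 to 175747 for Disome-seq, and those of C2C12 libraries from 7647102 to 29746110 for RNA-seq and from 3167026 to 6093268 for Ribo-seq. Depth of heart RNA-seq differed by genotype, with 3594696 to 14041366 counts in Rpl3l+/+ and 10930435 to 22425296 in Rpl3l-/- libraries. Rpl3l itself lay between 401 and 516 CPM in RNA-seq of the Rpl3l+/+ heart and between 24.4 and 37.0 CPM in that of the Rpl3l-/- heart. It lay between 1996 and 2053 CPM in RPL3L OE cells and at 0.819 CPM or less in RNA-seq of the other C2C12 cells. Of 15 listed cardiomyocyte markers 7 were in the table of counts. Their sum in RNA-seq lay between 47789 and 56658 CPM in Rpl3l+/+ hearts and between 48278 and 54252 CPM in Rpl3l-/- hearts. Genes of airway cells summed to over 1000 CPM in 7 heart libraries, namely RNA-seq of Rpl3l-/- mice 1 and 3, Ribo-seq of Rpl3l+/+ mouse 2 and Rpl3l-/- mice 1 and 2, and Disome-seq of Rpl3l-/- mice 1 and 2. Results in the heart are therefore also given without these libraries, and the part of airway cells in them was not tested further. Mouse numbers are those of the labels within 1 assay, and the same number need not be the same mouse in RNA-seq and Ribo-seq. In libraries of whole tissue, fewer cells of a type and less RNA per cell cannot be told apart.

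Promoters of 28 of the 36 genes were matched in RefSeq (GRCm38.p6, from 250 bases before to 50 bases after the start site). They are shown for 4 genes on which the comparisons below turn: Cox7a1, the muscle isoform of a complex IV subunit and the gene with the largest difference between heart and myoblasts, Uqcrc1, a core protein of complex III that was higher in RPL3 OE cells, Ndufb7, a complex I subunit that was lower in RPL3L OE cells, and Cox5b, a complex IV subunit that was lower in RPL3 OE cells. Capitals mark matches on either strand to 4 patterns: GCGCA and GCGC with any 1 base between them (NRF1, the nuclear respiratory factor), CCGGAAG (GABPA, which activates many of these genes), AAGGTCA (estrogen-related receptors), and CTA and TAG with any 4 bases between them (MEF2, a factor of muscle genes). No match overlaps another. The windows are chr7:30183921-30184220, chr9:108936398-108936697, chr8:83566508-83566807 and chr1:36691237-36691536, in this order and all on the plus strand.
Cox7a1: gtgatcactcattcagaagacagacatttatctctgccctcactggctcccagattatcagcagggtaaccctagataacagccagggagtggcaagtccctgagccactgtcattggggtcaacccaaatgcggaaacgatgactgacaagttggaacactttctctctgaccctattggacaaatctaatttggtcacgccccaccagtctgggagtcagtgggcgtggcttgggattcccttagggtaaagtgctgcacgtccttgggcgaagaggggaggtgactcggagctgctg
Uqcrc1: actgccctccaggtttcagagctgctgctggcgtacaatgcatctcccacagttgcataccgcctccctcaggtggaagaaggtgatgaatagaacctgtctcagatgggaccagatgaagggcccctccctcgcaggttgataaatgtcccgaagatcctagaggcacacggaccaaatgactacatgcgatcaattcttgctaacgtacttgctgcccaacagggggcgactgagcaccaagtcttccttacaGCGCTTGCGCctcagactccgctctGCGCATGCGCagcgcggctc
Ndufb7: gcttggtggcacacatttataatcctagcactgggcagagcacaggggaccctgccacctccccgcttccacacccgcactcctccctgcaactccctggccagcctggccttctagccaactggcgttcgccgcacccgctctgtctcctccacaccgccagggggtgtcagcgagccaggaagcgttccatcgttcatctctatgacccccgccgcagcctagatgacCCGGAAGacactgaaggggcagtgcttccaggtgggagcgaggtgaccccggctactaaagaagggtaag
Cox5b: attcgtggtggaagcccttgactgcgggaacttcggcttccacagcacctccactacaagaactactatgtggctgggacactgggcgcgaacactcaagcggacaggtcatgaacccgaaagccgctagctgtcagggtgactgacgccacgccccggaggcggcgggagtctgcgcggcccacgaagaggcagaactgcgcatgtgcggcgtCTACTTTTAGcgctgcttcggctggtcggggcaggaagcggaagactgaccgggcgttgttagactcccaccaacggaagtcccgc

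The promoter of Uqcrc1 has 2 NRF1 matches, whose first bases lie 6 and 31 bases after the start site. That of Ndufb7 has a GABPA match 20 bases before the start site, and that of Cox5b a MEF2 match 36 bases before it. The promoter of Cox7a1 held 0 of the 4 sets of letters in this window. Among the 28 promoters, 5 (17.9%) held an NRF1 match, 6 (21.4%) a GABPA match, 1 (3.57%) an estrogen-related receptor match and 2 (7.14%) a MEF2 match. The shares among 5060 genes of the table that had a promoter were 10.4%, 18.5%, 2.75% and 3.14%, and those among all 32851 promoters 4.60%, 8.86%, 4.72% and 3.69%. A match describes letters in a window and is not evidence of binding.

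In the Rpl3l+/+ heart, mRNAs of the respiratory chain were among the most abundant of the table. Together the chosen transcripts, 1 per gene, took 3.62% ± 0.186 (SD, n = 4 mice) of RNA-seq counts of all transcripts, 3.22% ± 0.162 of Ribo-seq counts and 4.57% ± 0.689 of Disome-seq counts. When all other genes were also counted by 1 transcript each, the shares were 8.84% ± 0.455, 7.01% ± 0.348 and 9.90% ± 1.59. Shares given below are of the first kind, with other transcripts of these genes only in the total. The median level was 655 CPM per kilobase over the 35 genes with a mean count of at least 10, against 5.35 over 5896 genes, and 34 of the 35 lay above the median gene. The highest levels were those of Cox7a1 (4533 ± 529 CPM per kilobase, rank 8 of 5896), Atp5b (4433 ± 106), which encodes the catalytic beta subunit of ATP synthase, and Cox4i1 (3955 ± 462), the ubiquitous isoform of subunit 4 of complex IV. The ranges of these 3 genes over the 4 mice overlapped. Cox7a1 lies at chr7:30184144-30186030 and Atp5b at chr10:128083273-128090391 on the plus strand (GRCm38), the values being those of transcripts of 4 and 10 exons.

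Levels are given here by the roles of the genes. Structural subunits of complex IV had a median of 1597 CPM per kilobase over 8 genes, in which Cox5a (2882 ± 285) and Cox5b (2082 ± 220) came next after Cox4i1. The alpha subunit of ATP synthase, Atp5a1, was at 2018 ± 110 and its delta subunit, Atp5d, at 576 ± 67.6. The 11 supernumerary subunits of complex I, which surround its catalytic core, ranged from 372 (Ndufb3) to 2540 (Ndufa3) with a median of 670 CPM per kilobase. Ndufs7, an iron-sulfur core subunit, was at 852 ± 89.5. Sdhb, the iron-sulfur subunit of complex II, was at 1270 ± 107, and Uqcrc1 and Uqcrc2, the core proteins of complex III, were at 1159 ± 65.0 and 655 ± 26.1.

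Most assembly factors and the isoforms of other tissues lay lower. The 4 complex I assembly factors ranged from 13.8 (Ndufaf4) to 93.1 (Ndufaf8) CPM per kilobase. Among those of complex IV, the copper chaperone Cox17 stood out at 785 ± 85.1, against 20.4 ± 3.13 for Cox11, which also delivers copper. The lowest were Cox8c, a testis isoform with 0 counts in every heart library, Sdhaf3, an assembly factor of complex II, at 2.14 ± 0.414, and Ndufa4l2, a hypoxia-induced relative of the complex IV subunit Ndufa4, at 11.2 ± 1.15. A count of 0 allows up to 3 counts, so that Cox8c was not detectable at this depth. Cox4i2, the isoform of subunit 4 known from lung and hypoxia, was at 18.4 ± 3.21. Several of these genes have processed pseudogenes, and reads that map to several places were allowed, so that exact levels are uncertain.

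**Figure D1:**
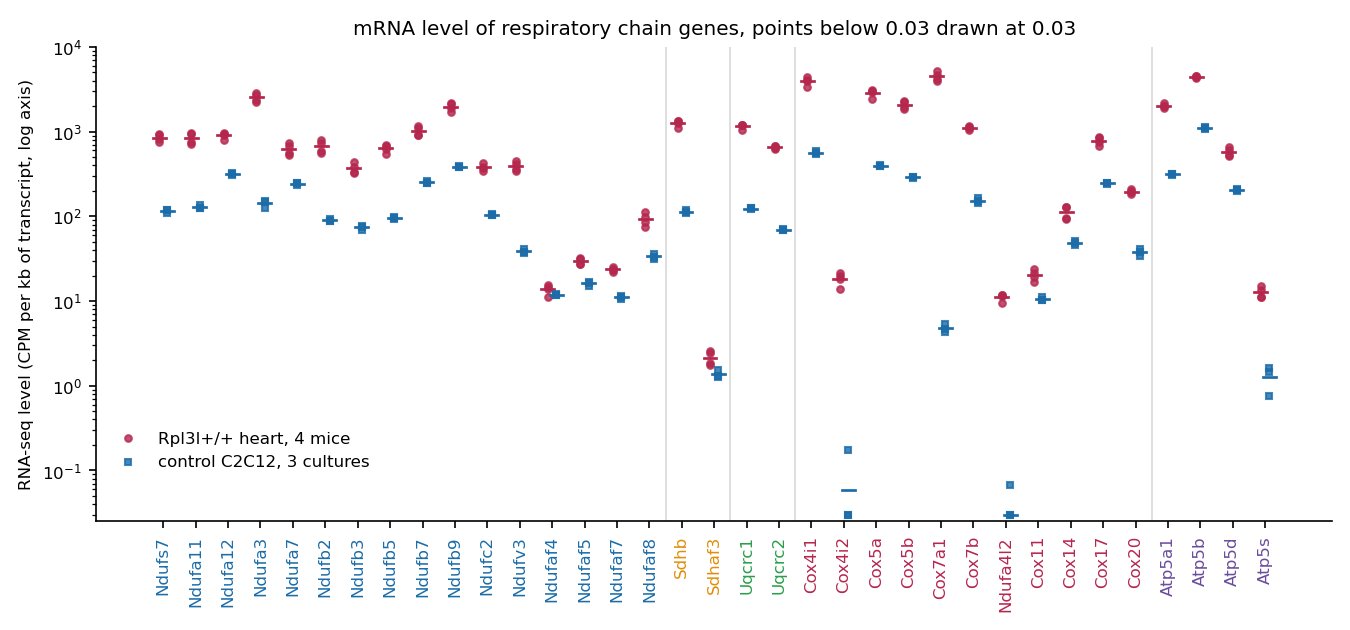
RNA-seq level (CPM per kilobase of transcript, log axis) of 35 respiratory chain genes in 4 Rpl3l+/+ hearts (circles) and 3 control C2C12 cultures (squares), with bars at the means, ordered by complex and coloured by it. In the heart most subunits lie above the assembly factors, of which Cox17 (785) is highest, and Cox7a1 falls from 4533 in the heart to 4.75 in C2C12 cells.

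Every one of the 35 genes with enough counts was higher in the Rpl3l+/+ heart than in control C2C12 myoblasts. In control C2C12 cells the 36 genes took 0.631% ± 0.00656 (n = 3) of RNA-seq counts and 0.836% ± 0.0167 of Ribo-seq counts, so that the shares in the heart were 5.74 and 3.86 times as large (exact permutation p = 0.0286 for each, two-sided, the smallest that 4 against 3 libraries can give). In the quasi-likelihood F-test of edgeR, with p-values adjusted over 15835 transcripts by the method of Benjamini and Hochberg, 35 of 35 had an adjusted p under 0.05 (hereafter called) and were higher in the heart. Of all transcripts 80.7% were called, 39.7% higher and 41% lower. CPM values of heart and C2C12 libraries did not overlap for 34 of the 35, against 84.9% of all transcripts (27.5% higher and 57.4% lower). The median log2 fold change was 3.44 over the 35 genes and -0.08 over all transcripts. Without Cox4i2 and Ndufa4l2, which had next to no counts in myoblasts, 33 of 33 were called and the median was 3.14. Tissue and cultured cells were prepared differently, and the effect of tissue and that of culture cannot be told apart.

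Cox7a1 had the largest fitted difference of the 35 genes. It lay at 1576, 1836, 1665 and 2048 CPM in the 4 hearts and at 1.84, 1.68 and 2.08 CPM in the 3 control cultures. The groups lie about 3 orders of magnitude apart, and the log2 fold change was 10.62 ± 0.20 (SE, adjusted p = 4.25e-14). Cox4i2 had 0 to 2 counts and Ndufa4l2 0 or 1 count in each control library, so that only a lower bound can be given: against a floor of 3 counts per library, Cox4i2 was at least 80.2-fold higher and Ndufa4l2 at least 62.4-fold higher in the heart. Both passed the filter only through the heart and so had to differ. Cox4i1, the ubiquitous partner of Cox4i2, lay between 2478 and 3298 CPM in hearts and between 412 and 436 CPM in cultures, a log2 fold change of 3.58 ± 0.15.

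Among subunits other than Cox7a1, Cox4i2 and Ndufa4l2, Ndufa3, a small membrane-arm subunit of complex I, rose most, from 44.4, 53.8 and 51.4 CPM in myoblasts to 780.0, 946, 821 and 1018 CPM in the heart, a log2 fold change of 4.92 ± 0.15 (adjusted p = 3.02e-12 from edgeR). Sdhb rose by 4.24 ± 0.14 and both core proteins of complex III by 3.99 (SE 0.12 for Uqcrc1 and 0.10 for Uqcrc2). The 3 ATP synthase subunits rose by 2.27 to 3.44. The medians for assembly factors were 1.75 for complex I (4 genes, 0.98 to 2.25) and 2.21 for complex IV (4 genes, 1.72 to 3.14), and those for subunits 3.13 for the 11 supernumerary subunits of complex I (2.14 to 4.92) and 3.63 for the 7 tested subunits of complex IV (3.58 to 10.62). The ranges overlap for complex I and do not for complex IV, and the difference between roles was not tested. Ndufaf4, an assembly factor of complex I, had the smallest difference, 0.98 ± 0.11, and its CPM values overlapped between heart (40.1 to 56.9) and myoblasts (42.3 to 43.9). Ndufaf4 was also the 1 gene of the 35 not called when library totals replaced TMM scaling, which lowered the median of all transcripts to -0.84 and left the genes' median 3.52 above it, against 3.53 with TMM. With library totals 4455 transcripts were called higher and 9150 lower, against 6286 and 6495 with TMM.

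Most genes of related mitochondrial pathways were also higher in the heart. Of 24 tested genes for other assembly factors and ubiquinone synthesis, 21 were called higher in the heart and 0 lower (median log2 fold change 2.27). All 8 tested genes of the tricarboxylic acid cycle were higher (median 2.93). Regulators of mitochondrial genes were mixed, with 5 of 8 called higher and 3 lower. Those higher were Perm1, Esrrg, Esrrb, Ppara and Twnk (0.80 ± 0.13), of which Esrrg and Esrrb encode estrogen-related receptors. Those lower were Pprc1 (-1.82 ± 0.11), Nrf1 (-1.59 ± 0.17) and Gabpa (-0.72 ± 0.14), where Nrf1 and Gabpa encode the factors whose motifs were searched above. The 8 are those of 18 listed regulators that were in the table. Only 4 of the 8 had enough counts for the RNA-seq comparisons within C2C12 cells. The others passed the filter through the heart, so that a higher level there was largely fixed in advance.

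Footprints of most of these genes rose less than their mRNAs. Translation efficiency (TE) is the ratio of Ribo-seq to RNA-seq CPM of a gene, and was tested as the interaction of tissue and assay. The part of each transcript that is coding differs between genes and was not divided out. In the Rpl3l+/+ heart the median log2 TE was 0.01 over 35 genes, against 0.59 over 5274 genes, and 4 of the 35 lay above the median gene. In control C2C12 cells it was 0.45 over 31 genes against 0.28 over 5307 genes, with 19 of 31 above the median gene. TE was called lower in the heart for 30 of 35 genes and higher for 0, with 47.9% of 13989 transcripts called by edgeR, 25.2% lower and 22.7% higher. The median difference was -0.96 on the log2 scale, against -0.04 over all transcripts.

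The values of single genes show the shift. Ndufaf8, an assembly factor of complex I, had 32.3, 42.1, 37.0 and 47.7 RNA-seq CPM and 18.8, 18.8, 11.5 and 21.3 Ribo-seq CPM in the 4 hearts. In the 3 control cultures it had 15.3, 14.3 and 13.5 RNA-seq CPM and 16.3, 14.6 and 15.5 Ribo-seq CPM. The mRNA was thus higher in every heart than in any culture while the footprints overlapped, and TE differed by -1.69 ± 0.25 (adjusted p = 1.49e-05). Ndufa3 (-1.54 ± 0.16), Ndufs7 (-1.47 ± 0.15) and Atp5d (-1.34 ± 0.15) followed. All 11 supernumerary subunits of complex I, 6 of 7 complex IV subunits and all 3 ATP synthase subunits were called lower. Cox20, which chaperones a mitochondrially encoded subunit of complex IV, Cox4i2, the assembly factors Ndufaf7 and Sdhaf3, and Atp5s were not called, with differences from -2.59 (Cox4i2) to 0.12 (Sdhaf3). That of Ndufa4l2, -6.68 ± 0.49, rests on 1, 0 and 0 RNA-seq counts against 49, 36 and 38 footprints in control cultures and depends on the prior count. Without Ndufa4l2 and Cox4i2, 29 of 33 were called and the median was -0.96.

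With library totals in place of TMM, 23 of 35 were called lower and 0 higher, and the genes' median lay 0.91 below that of all transcripts (0.32), as against 0.92 below with TMM. Calls over all transcripts then fell to 1985 lower and 4871 higher, from 3523 and 3171. The 7 genes that lost the call were Ndufaf4, Ndufaf5, Ndufb3, Ndufc2, Uqcrc2, Cox11 and Cox17. Under either scaling 34 of 35 lay below the median of all transcripts.

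**Figure D2:**
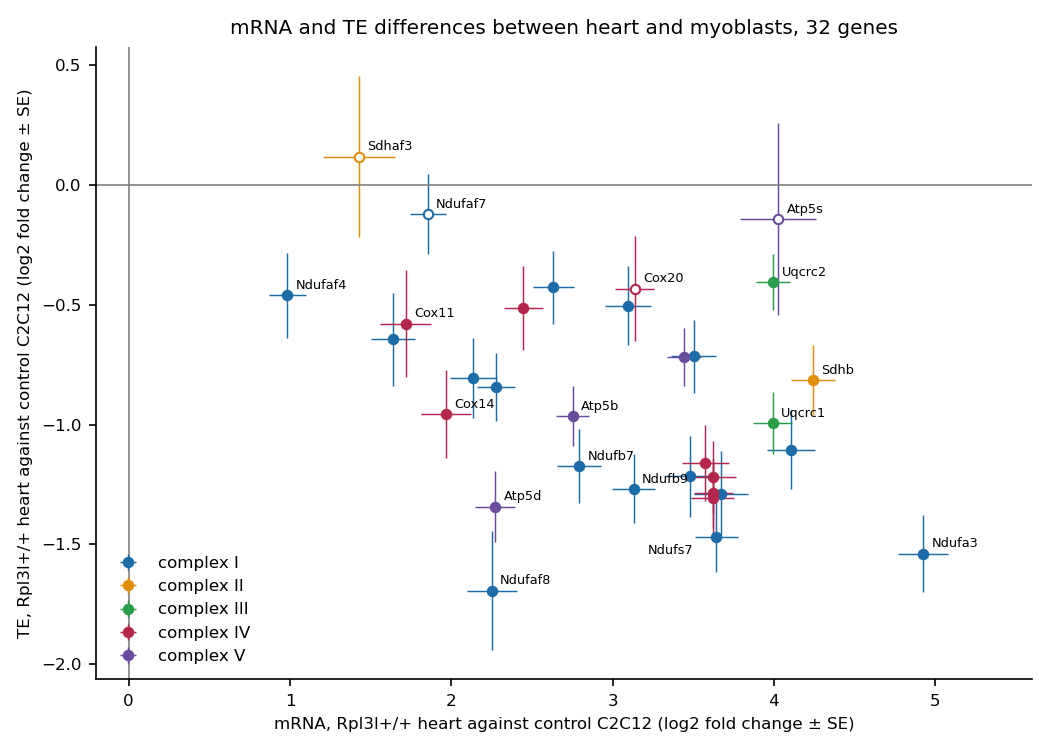
Log2 fold change in mRNA (horizontal axis) and in TE (vertical axis), each ± SE, of Rpl3l+/+ hearts against control C2C12 cultures for 32 respiratory chain genes, without Cox7a1, Cox4i2 and Ndufa4l2. All points lie right of 0 and all but Sdhaf3 (0.12) below 0; open symbols are the TE differences that did not pass an adjusted p of 0.05.

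Within the Rpl3l+/+ heart TE differed widely between the genes. The lowest log2 values were those of Ndufaf8 (-1.15 ± 0.23, SE), Cox17 (-1.05 ± 0.12) and Cox7a1 (-0.85 ± 0.11). The highest were those of Ndufa4l2 (2.02 ± 0.13), Atp5s (0.72 ± 0.13) and Uqcrc2 (0.71 ± 0.05). The most abundant mRNAs were thus not those with the highest TE, which is not scaled by length: Cox7a1, Atp5b (-0.52 ± 0.05) and Cox4i1 (-0.66 ± 0.10) all lay below the genes' median. Coding regions of the group are short, with a median of 149 codons over 35 of the 36 genes, against 466 over 6309 genes. Cox14 is left out of this count because the version of its transcript in the table is not that of GENCODE M21.

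The combined share of Pro and Ala codons was also examined. It was 14.4% (median of the same 35 genes) against 12.7% over 6309 genes, with 8 of the 35 below the median gene. Cox17 was highest at 27.0%, followed by Ndufa3 at 23.0% and Atp5d at 22.6%, and Atp5s lowest at 7.0%. Ala codons alone took 8.16% against 6.89%, and Pro codons 5.6% against 5.50%.

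Loss of RPL3L was not accompanied by a detectable change in any single respiratory chain mRNA. Of 15394 transcripts 0.013% were called by edgeR, 2 transcripts that both belong to Rpl3l, and 0 of 35 respiratory chain genes were called. None had an unadjusted p under 0.05 (352 of all transcripts did), and DESeq2 called 0 of the 35 as well. The genotypes overlapped in CPM for all 35, while 1.49% of all transcripts did not overlap (0.747% higher and 0.741% lower). The 36 genes took 3.71% ± 0.223 of RNA-seq counts in the Rpl3l-/- heart, against 3.62% ± 0.186 (exact permutation p = 0.6, two-sided, where 4 against 4 mice can reach 0.0286). Log2 fold changes ranged from -0.32 to 0.17 with standard errors from 0.11 to 0.22, and 29 of 35 were above 0 with a median of 0.05, against 0.00 over all transcripts.

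This small excess rests on single mice. Rpl3l-/- mouse 2 had the highest RNA-seq CPM of its group for 28 of the 35 genes, and without it 6 of 35 were higher in the Rpl3l-/- heart. Without Rpl3l+/+ mouse 3, which was lowest for 17 genes, 7 were. Cox7a1 illustrates the pattern: it lay at 1631, 2242, 1762 and 1641 CPM in Rpl3l-/- hearts, so that mouse 2 stood above all others of both genotypes while the other 3 lay within the range of Rpl3l+/+ hearts (1576 to 2048). RNA-seq of Rpl3l-/- mouse 2 also had the highest summed cardiomyocyte markers of its group (54252 CPM). Its summed fibroblast (902 CPM, against 1154 to 1719), endothelial (276, against 392 to 449) and white fat markers (1510, against 2240 to 2764) were the lowest. Blood cell markers (7083 CPM) lay within the range of the others. The part of these differences in the excess was not tested. Without the libraries high in airway genes, which leaves Rpl3l-/- mice 2 and 4, 33 of 35 were higher and 0 were called. The genes with the smallest p-values were Atp5s and Ndufb7. Atp5s was at 16.4, 16.8, 22.1 and 20.0 CPM in Rpl3l+/+ and at 12.2, 17.5, 15.1 and 14.6 CPM in Rpl3l-/- hearts. The groups overlapped, and the log2 fold change was -0.32 ± 0.17 (unadjusted p = 0.0727 from edgeR). That of Ndufb7 was 0.17 ± 0.15.

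No gene of the chain was called in Ribo-seq either, with Atp5d closest to the threshold. In Ribo-seq 0.677% of 12695 transcripts were called (0.425% higher and 0.252% lower), and 0 of 35 respiratory chain genes. An unadjusted p under 0.05 was reached by 2073 of all transcripts and by 5 of these genes: Atp5d, Ndufs7, Uqcrc1 and Ndufa11 with more footprints in the Rpl3l-/- heart, and Cox20 with fewer. The 36 genes took 3.36% ± 0.271 of Ribo-seq counts in the Rpl3l-/- heart, against 3.22% ± 0.162 (exact permutation p = 0.429, two-sided). Log2 fold changes ranged from -0.40 to 0.38, with standard errors from 0.08 to 0.24 and a median of 0.04 against 0.01 over all transcripts.

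Atp5d, the delta subunit in the central stalk of ATP synthase, had 919, 914, 874 and 1017 Ribo-seq CPM in Rpl3l+/+ hearts and 1016, 1172, 1225 and 1278 CPM in Rpl3l-/- hearts. Rpl3l-/- mouse 1 fell just below the highest Rpl3l+/+ mouse, and the other 3 lay above all of them. The log2 fold change was 0.38 ± 0.09 with an adjusted p of 0.0763 from edgeR. It passed the threshold with DESeq2 (adjusted p = 0.0164), and in none of the edgeR fits without 1 mouse (0.0529 to 0.208). With the replicate number as a block the adjusted p from edgeR was 0.0477. That block joins different mice of the 2 genotypes, whose same-numbered Ribo-seq libraries did not all pair (correlations from -0.53 to 0.61). Cox20 went the other way, from 58.9, 70.2, 82.1 and 71.5 CPM to 50.4, 47.4, 50.4 and 60.1 CPM. Only Rpl3l-/- mouse 4 reached the range of the Rpl3l+/+ mice, and the log2 fold change was -0.40 ± 0.13 (adjusted p = 0.155). Ndufb9, a membrane-arm subunit of complex I, was the 1 gene of the 35 whose groups did not overlap, at 785 to 818 CPM in Rpl3l+/+ and 664 to 778 CPM in Rpl3l-/- hearts, while 10.5% of all transcripts did not overlap (3.43% higher and 7.05% lower). Its fold change was small (-0.09 ± 0.08).

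Without the 3 Ribo-seq libraries high in airway genes, 0 of 35 were called, 15 had an unadjusted p under 0.05 (1555 of 12532 transcripts did), 26 were higher in the Rpl3l-/- heart and the median was 0.16, against 0.00 over all transcripts. Of the Rpl3l-/- hearts this fit kept only mice 3 and 4, which were highest of their group for 7 and 24 of the 35 genes. Their summed fibroblast markers (2847 and 3189 CPM) were also below those of mice 1 and 2 (4192 and 4459 CPM). The part of this choice of libraries in the shift was not tested. In this fit Atp5d had a log2 fold change of 0.49 with an adjusted p of 0.0871. With library totals 17 of 35 were higher, and over all transcripts 42 were called higher and 63 lower, against 54 and 32 with TMM.

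TE in the heart was not called for any gene of the chain either. Of 12483 transcripts 0% were called by edgeR, and 0 of 35 respiratory chain genes. At an unadjusted p under 0.05 there were 803 transcripts and 0 of these genes, and DESeq2 called 22 transcripts and 0 of these genes. The smallest p-values belonged to Ndufa4l2 (log2 fold change in TE -0.40 ± 0.21, unadjusted p = 0.0705 from edgeR) and Atp5d (0.32 ± 0.18, unadjusted p = 0.0847 from edgeR). Differences ranged from -0.40 to 0.32 with standard errors from 0.13 to 0.34.

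**Figure D3:**
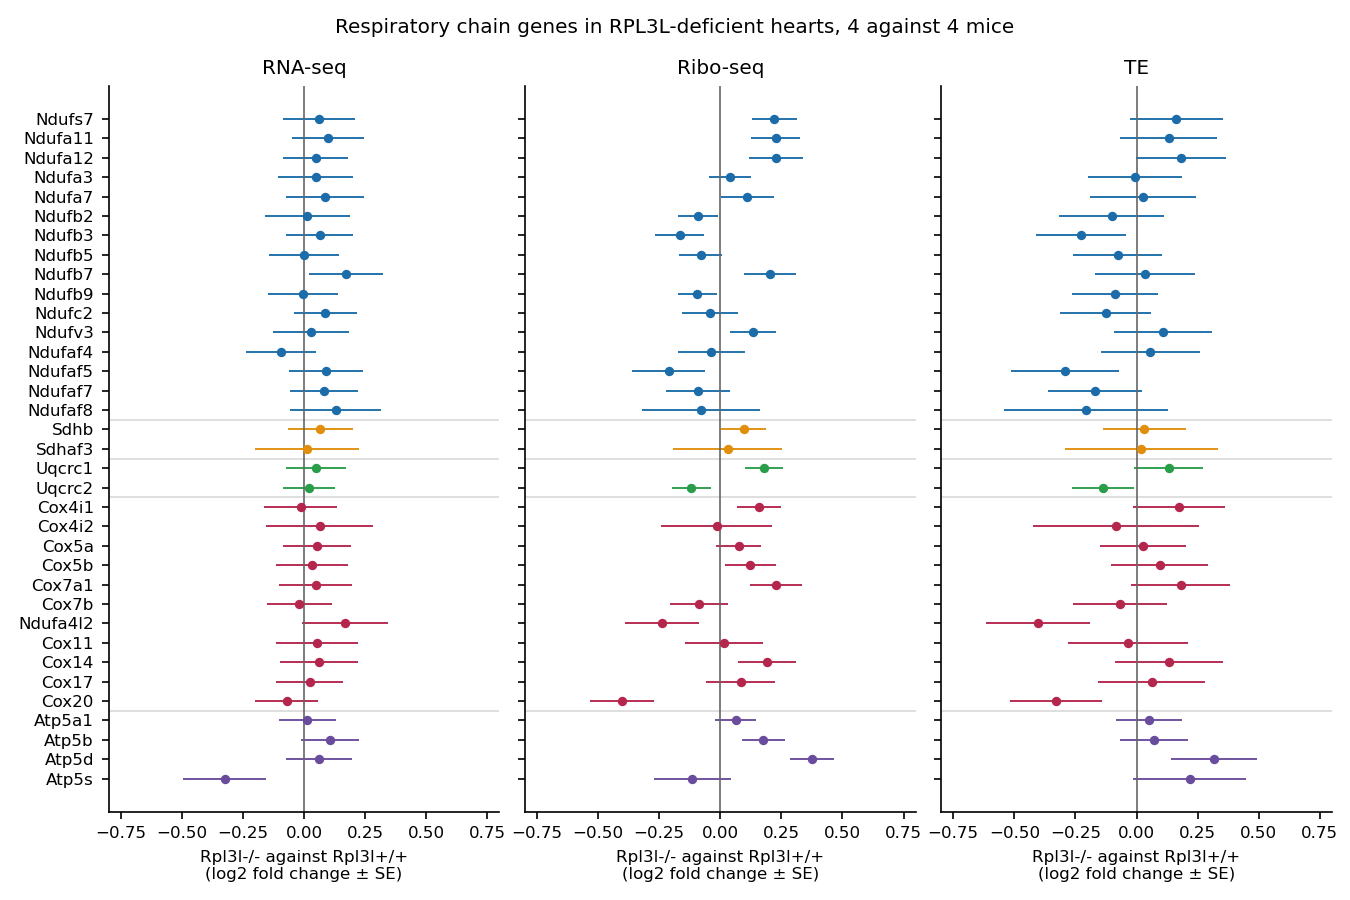
Log2 fold change ± SE of Rpl3l-/- against Rpl3l+/+ hearts (4 mice each) in RNA-seq, Ribo-seq and TE for 35 respiratory chain genes, ordered by complex. None passed an adjusted p of 0.05, and the widest departures in Ribo-seq are Atp5d (0.38) and Cox20 (-0.40).

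Pairs of adjacent ribosomes were unevenly spread over respiratory chain mRNAs. Disome enrichment was taken as the ratio of Disome-seq to Ribo-seq CPM, for the 23 genes whose mean counts reached 10 in each assay. All 23 encode subunits, since no assembly factor had enough disome counts. In the Rpl3l+/+ heart the median log2 enrichment was -0.04, against 0.30 over 628 genes, and 6 of the 23 lay above the median gene. Atp5b (1.26 ± 0.16, SE), Cox7a1 (1.20 ± 0.25) and Atp5a1 (0.69 ± 0.12) were highest, and Ndufv3 (-1.35 ± 0.25), Ndufb7 (-0.82 ± 0.14) and Ndufs7 (-0.65 ± 0.14) lowest. All 6 genes above the median gene encode subunits of complex IV (Cox7a1, Cox4i1, Cox5a and Cox7b) or ATP synthase (Atp5a1 and Atp5b).

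Cox7a1 and Ndufv3 mark the ends of this range. Cox7a1 had 872 to 1071 Ribo-seq CPM and 1522, 1893, 3085 and 2844 Disome-seq CPM in Rpl3l+/+ hearts. Ndufv3, a subunit of the NADH-oxidizing module of complex I, had 411 to 461 Ribo-seq CPM and 227, 93.5, 183 and 123 Disome-seq CPM. Disomes thus exceeded monosomes in CPM on Cox7a1 in every mouse and fell short on Ndufv3 in every mouse. Counts were few, with a total of 39016 to 175747 per mouse, and the deposited runs of Rpl3l+/+ mouse 1, summed here, differed in the share of respiratory chain counts (2.69% and 5.04%).

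In the Rpl3l-/- heart the median log2 enrichment was 0.15, against 0.32 over 630 genes, and 10 of the 23 lay above the median gene. Cox7a1 (1.41 ± 0.13) and Atp5b (1.07 ± 0.08) were again highest there and Ndufb7 (-1.49 ± 0.39) and Ndufv3 (-1.27 ± 0.22) lowest, and no single gene was called. Of 1365 transcripts 0% were called by edgeR in Disome-seq, and 0 of 23 respiratory chain genes. At an unadjusted p under 0.05 there were 60 transcripts and 0 of these genes. The share of counts was 4.76% ± 0.18, against 4.57% ± 0.689 (exact permutation p = 0.857, two-sided). Ndufb2, a supernumerary subunit of complex I, had the smallest p-value, with 361, 280, 568 and 417 CPM in Rpl3l+/+ and 637, 613, 374 and 1000 CPM in Rpl3l-/- hearts. The groups overlapped through Rpl3l-/- mouse 3, and the log2 fold change was 0.62 ± 0.33 (unadjusted p = 0.079 from edgeR). That of Cox7a1 was 0.31 ± 0.22. Groups did not overlap for 1 of the 23, Atp5d, which lay at 662 to 771 CPM in Rpl3l+/+ and 790 to 846 CPM in Rpl3l-/- hearts, and for 3.3% of all transcripts (1.9% higher and 1.39% lower).

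For disomes relative to monosomes, tested as the interaction of genotype and assay, 0% of 1365 transcripts and 0 of 23 respiratory chain genes were called by edgeR. Ndufb7 (log2 fold change -0.76 ± 0.30, unadjusted p = 0.0194 and adjusted p = 0.465 from edgeR) and Ndufb2 (0.65 ± 0.30, unadjusted p = 0.0427 from edgeR) had an unadjusted p under 0.05, as did 129 of all transcripts. Ndufb7 had 214, 164, 256 and 172 Disome-seq CPM in Rpl3l+/+ and 159, 145, 228 and 51.3 CPM in Rpl3l-/- hearts. The last value is the lowest, and the groups overlapped. DESeq2 called 25 transcripts, with Ndufb2 among them (adjusted p = 0.0448). The genes' median was -0.05 against -0.08 over all transcripts, and 0.06 against 0.04 with library totals. Without the libraries high in airway genes it was -0.19 against -0.03, with 0 of 23 called and 0 with an unadjusted p under 0.05. Of the Rpl3l-/- hearts that fit kept only mice 3 and 4.

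**Figure D4:**
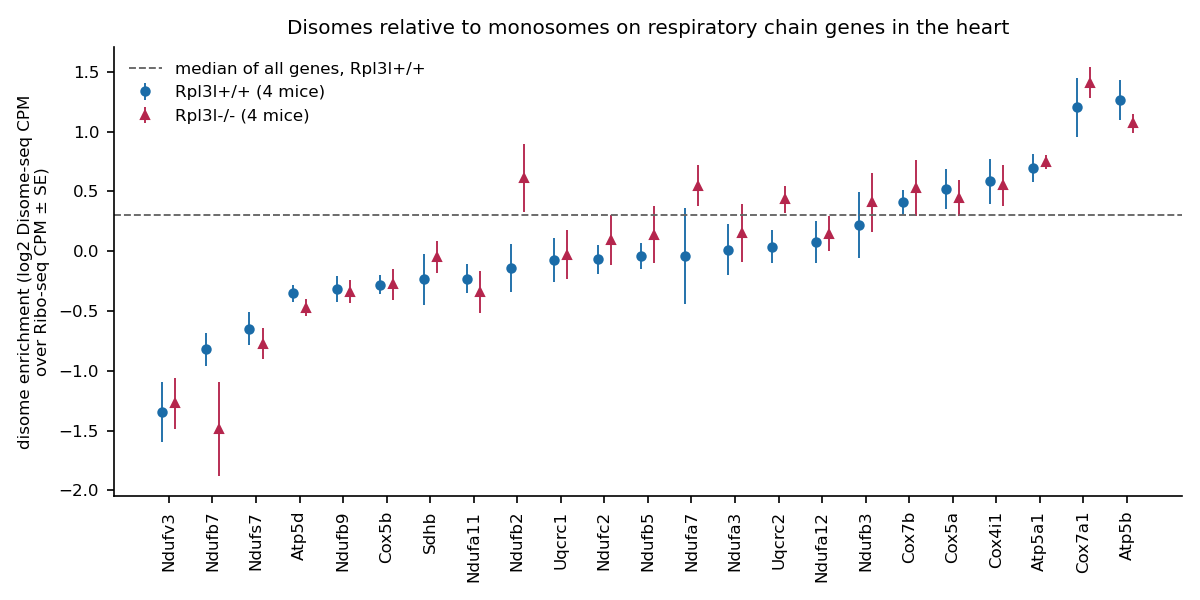
Log2 ratio of Disome-seq to Ribo-seq CPM (mean ± SE over 4 mice) for 23 respiratory chain genes in Rpl3l+/+ (circles) and Rpl3l-/- (triangles) hearts, ordered by the Rpl3l+/+ value, with a dashed line at the median of 628 genes in Rpl3l+/+ hearts (0.30). Values run from -1.35 (Ndufv3) to 1.26 (Atp5b) in Rpl3l+/+ hearts, and from -1.49 (Ndufb7) to 1.41 (Cox7a1) in Rpl3l-/- hearts.

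In RPL3L OE cells Ndufb7 mRNA was lower than in control cells, and the number of respiratory chain genes called was near the share over all transcripts. The share of RNA-seq counts taken by the 36 genes was 0.608% ± 0.00409 in RPL3L OE cells (n = 3), against 0.631% ± 0.00656 in control cells and 0.625% ± 0.00546 in RPL3 OE cells. In RPL3L OE cells all 3 values lay below all others, with an exact permutation p of 0.1 against either group, two-sided, the smallest that 3 against 3 cultures can give. Against control cells, 3 of 33 genes with enough counts were called lower and 0 higher by edgeR, where 9.26% of 14432 transcripts were called, 4.61% lower and 4.65% higher. Ribo-seq shares were 0.8005%, 0.836% and 0.813% in the same order, with an exact permutation p of 0.1 against control and 0.2 against RPL3 OE cells. The median log2 fold change was -0.06 over the 33 genes, with 27 below 0, and 0.00 over all transcripts.

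Ndufb7, a subunit at the intermembrane face of complex I (chr8:83566671-83571626, 3 exons), fell most. It was at 162, 154 and 155 CPM in control, 167, 157 and 166 CPM in RPL3 OE and 129, 125 and 127 CPM in RPL3L OE cells. The RPL3L OE cultures lay below all others, and the log2 fold change against control was -0.31 ± 0.04 (adjusted p = 4.11e-08 from edgeR). RPL3L OE and control cultures did not overlap for 25.3% of all transcripts (13.7% higher and 11.6% lower). Ribo-seq of Ndufb7 gave 163, 166 and 169 CPM in control and 135, 141 and 153 CPM in RPL3L OE cells. Cox4i1 fell by 0.13 on the log2 scale (SE 0.04, adjusted p = 0.0122) and Ndufb5, a membrane-arm subunit of complex I, by 0.15 (SE 0.05, adjusted p = 0.0384). Both lost the call when RPL3L OE culture 2 was left out. The call of Cox4i1 was also lost without control culture 1, and that of Ndufb5 without control culture 3 or RPL3L OE culture 1, with DESeq2 and with a replicate block.

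RPL3 OE cells, compared with the same control cultures, had lower Cox5b mRNA. By edgeR 4 of 33 genes were called lower and 1 higher, where 16.1% of 14432 transcripts were called, 7.96% lower and 8.12% higher. Cox5b lay between 246 and 251 CPM in control and between 212 and 215 CPM in RPL3 OE cells. The groups did not overlap, as was so for 30.4% of all transcripts (14.3% higher and 16.1% lower). The log2 fold change was -0.21 ± 0.04 (adjusted p = 4.14e-06). Cox17 fell by 0.19 (SE 0.05), Ndufv3 by 0.18 (SE 0.06) and Ndufb9 by 0.10 (SE 0.04), and Uqcrc1 rose by 0.11 (SE 0.04). With DESeq2 only Cox5b and Cox17 were called. Without RPL3 OE culture 3 only Cox5b was, and without RPL3 OE culture 1 or control culture 3 the number was 3. The shares of counts of the 36 genes were 0.625% and 0.631% (exact permutation p = 0.3, two-sided). The median log2 fold change was -0.01, against 0.00 over all transcripts.

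In RPL3L OE against RPL3 OE cells 7 of 33 genes were called by edgeR, 5 lower and 2 higher, while 27% of 14432 transcripts were, 14.1% lower and 13% higher. Ndufb7 (-0.38 ± 0.04, adjusted p = 2.23e-10), Ndufb5 (-0.24 ± 0.05), Cox7b (-0.19 ± 0.05), a subunit of complex IV, Cox4i1 (-0.11 ± 0.04) and Atp5a1 (-0.08 ± 0.03) were lower. Cox5b (0.17 ± 0.04) and Cox7a1 (1.04 ± 0.37) were higher. Cox7a1 had 15, 6 and 9 counts in RPL3 OE and 21, 18 and 21 counts in RPL3L OE cells and reached 1.96 CPM at most in RPL3 OE and 2.06 CPM at least in RPL3L OE cells, against 1.68 to 2.08 CPM in control cells. RPL3L OE and RPL3 OE cultures did not overlap for 37.8% of all transcripts (20.1% higher and 17.7% lower). Cox7a1 lost its call with DESeq2, without RPL3 OE culture 2 or 3 and without RPL3L OE culture 1 or 3. Without RPL3L OE culture 3 the number of genes called fell to 4. This comparison shares cultures with each of the other comparisons, so that they are not independent.

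Markers of cell types also differed between the C2C12 groups. Summed fibroblast markers, 8 genes with Col1a1 and Col1a2 among them, lay between 1790 and 1870 CPM in RNA-seq of control, between 2644 and 2685 CPM in that of RPL3 OE and between 1977 and 2015 CPM in that of RPL3L OE cells. Summed myoblast markers, 5 genes with Myod1 and Des among them, lay between 690 and 719 CPM, between 486 and 531 CPM and between 833 and 850 CPM in the same order. The ranges of the 3 groups do not overlap for either list, and the part of these differences in the results of C2C12 cells was not tested.

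**Figure D5:**
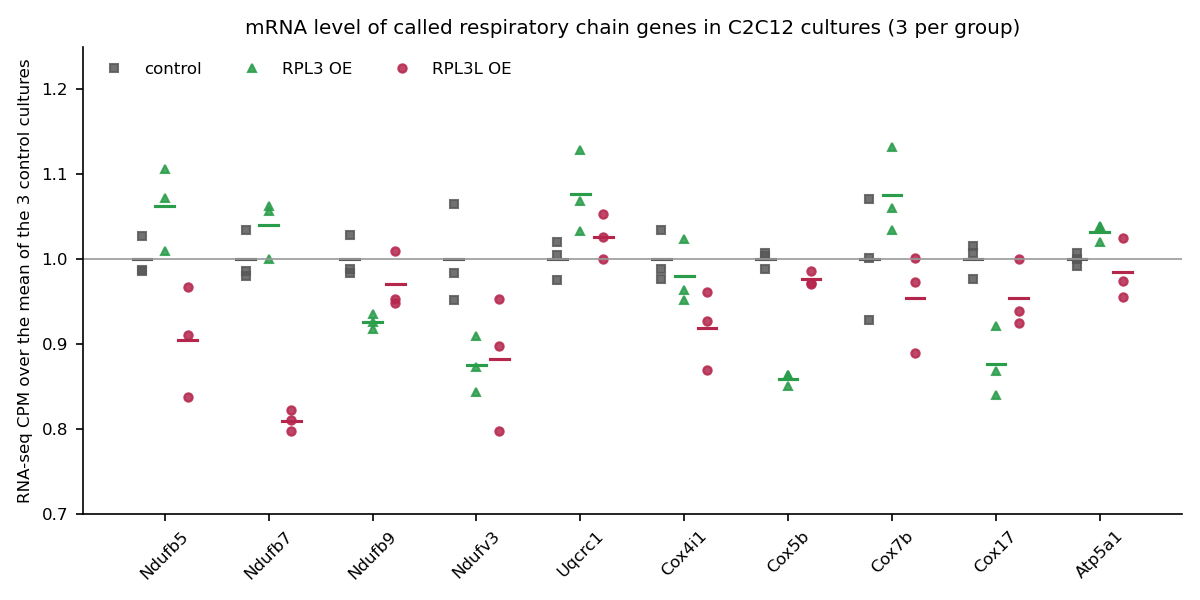
RNA-seq CPM of 10 of the 11 respiratory chain genes called in at least 1 comparison of C2C12 cells (without Cox7a1), divided by the mean of the 3 control cultures, for control (squares), RPL3 OE (triangles) and RPL3L OE (circles) cultures, with bars at the means (the axis does not start at 0). For Ndufb7 the 3 RPL3L OE cultures lie below all others, and for Cox5b the 3 RPL3 OE cultures do.

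TE of Cox17 was the 1 change in translation called in C2C12 cells. In RPL3L OE against control cells, 1 of 32 genes was called higher and 0 lower by edgeR, while 2.08% of 13457 transcripts were called, 1.13% higher and 0.951% lower (152 and 128, and 301 and 108 with library totals). Cox17, at chr16:38346991-38352763 with 3 exons, had 106, 109 and 110.4 RNA-seq CPM and 55.3, 66.3 and 51.2 Ribo-seq CPM in control cells. In RPL3L OE cells it had 109, 102 and 100.5 RNA-seq CPM and 67.2, 76.6 and 71.7 Ribo-seq CPM. Footprints were thus higher in each RPL3L OE culture than in any control culture, while mRNA overlapped. The share of all transcripts whose footprints did not overlap was not computed for C2C12 cells. The log2 fold change in TE was 0.36 ± 0.10 (adjusted p = 0.0298), and the call was lost without control culture 1 or 3 or RPL3L OE culture 2 or 3. Sdhaf3 (1.00 ± 0.31, adjusted p = 0.0723) and Cox20 (0.57 ± 0.20, adjusted p = 0.108) came next.

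RPL3 OE against control cells gave 0 of 32 called by edgeR, where 0.052% of 13457 transcripts were called, all lower (7, and 7 lower and 6 higher with library totals). At an unadjusted p under 0.05 there were 1054 transcripts and 3 of these genes, with Cox7b (-0.19 ± 0.07, unadjusted p = 0.0133 from edgeR) and Ndufc2 (-0.18 ± 0.08) first, and DESeq2 called 0 of the 32. In RPL3L OE against RPL3 OE cells 0 of 32 were called and 4 had an unadjusted p under 0.05, as did 1214 of all transcripts, where 0.305% of transcripts were called (0.141% higher and 0.163% lower). Cox17 (0.38 ± 0.10, adjusted p = 0.054 from edgeR) and Cox7b (0.25 ± 0.07, adjusted p = 0.142) had the smallest p-values. In this comparison 27 of 32 genes had a higher TE in RPL3L OE cells, with a median of 0.08 against 0.01 over all transcripts. The other respiratory chain and ubiquinone genes gave 0 of 24 called in each of these TE comparisons, the tricarboxylic acid cycle 0 of 8, and the regulators 0 of 4, except for Nrf1 in RPL3L OE against control cells (-0.42 ± 0.10).

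m6A-seq of the heart gave 13 peaks on respiratory chain genes within coding regions, of which 12 had enough counts. By edgeR 0% of 2338 peaks were called and 0 of these 12. At an unadjusted p under 0.05 there were 221 peaks and 2 of these, and DESeq2 and limma on log2(TPM + 1) called 0 peaks as well. The highest peaks were those of Atp5b at chr10:128085064-128085117 (mean TPM 2735), Atp5a1 at chr18:77777499-77777524 (1172) and Cox5b at chr1:36692187-36692233 (470). The Atp5b peak had a TPM of 1826, 2723 and 2471 in Rpl3l+/+ and 3090, 3199 and 3099 in Rpl3l-/- hearts. The groups did not overlap, and the log2 fold change in counts was 0.47 ± 0.19 (unadjusted p = 0.0285 and adjusted p = 0.514 from edgeR). The share of all peaks without overlap was not computed. The other peak with an unadjusted p under 0.05 lies where Uqcrc2 and Pdzd9 overlap and rests on mean counts of 11.7 and 34.7. Of the 12 peaks 11 were higher in the Rpl3l-/- heart, 8 with library totals and 7 without Rpl3l+/+ mouse 1. Total counts ranged from 205499 to 660116 per library, and the level of a peak also follows that of its mRNA, which was not divided out.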

How the data were processed

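Heart libraries (RNA-seq, Ribo-seq, Disome-seq and m6A-seq) and C2C12 libraries (RNA-seq and Ribo-seq) were grouped by their labels. The genes and gene lists were chosen with earlier results of these data known. The deposited counts are whole reads per transcript; the authors trimmed reads with cutadapt and the FASTX-Toolkit, used UMI-tools, aligned with STAR to GRCm38.p6 with multiple mappings allowed, and counted with featureCounts (versions not given in the sources used here). For m6A-seq the authors called peaks with HOMER, counted reads over coding-region peaks common to 3 replicates with bedtools, and deposited TPM values beside the counts. The count table has 47754 lines, which are 23877 transcripts listed in duplicate. Of these, 23662 matched GENCODE M21, all on the plus strand, and 215 did not. A total of 0 count columns was left unused, and sequencing runs of 1 mouse in Disome-seq were summed.

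Transcripts were kept where counts averaged 10 or more in each assay that a model used, and were tested with edgeR 4.0.16 (TMM scaling, quasi-likelihood F-test, two-sided, Benjamini-Hochberg adjustment over all transcripts, called at an adjusted p under 0.05) in R 4.3.3. TE and disomes relative to monosomes were tested as interactions of group and assay, heart comparisons with the groups compared only, and comparisons of C2C12 groups with all 3 groups in the model. Log2 ratios within a group used a prior count of 2. Shares of counts were compared by exact permutation tests (NumPy 2.4.6). Alternatives were library totals, other filters, DESeq2 1.42.0, limma 3.58.1 (m6A), 1 transcript per gene, single disome runs, a replicate block, each replicate left out, and, chosen after seeing the data, heart libraries with airway markers over 1000 CPM left out. Scripts were tested on simulated data. Replicates of a group differed by more than sampling noise (chi-square per degree of freedom of 1.36 or more). In heart RNA-seq this value was 6.05 to 11.9 between Rpl3l+/+ mice and 14.3 to 39.0 between Rpl3l-/- mice. In 8 of 8 same-numbered pairs of Ribo-seq and Disome-seq libraries, deviations from the means of the group were correlated (r of 0.456 to 0.797). Each correlated best with its own number, except that Ribo-seq of Rpl3l+/+ mouse 4 correlated best with Disome-seq of mouse 2. The numbers were taken as pairs because every r exceeded 0.1, which leaves that pair uncertain. With this pairing as a block, 0 genes were called for disomes relative to monosomes, as without it.

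The text names Rpl3l, the tissue isoform genes, the 3 highest and 3 lowest genes in level, TE and disome enrichment in the Rpl3l+/+ heart, and in each comparison all called genes where there are at most 10, otherwise the 5 largest changes in each direction among called genes whose groups do not overlap, or the 2 smallest p-values where 0 were called, and for m6A the 3 highest peaks. Other genes were named after their values were seen. Promoters come from RefSeq (GRCm38.p6). Standard errors include the spread between replicates, while floors cover counting error only. The columns of the authors' own comparisons and the tRNA-seq data were not used here.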

Additional observations from a re-analysis of the deposited data

Results flagged for a closer look

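Sets of 4 mice were examined for the genes that the rule of the methods names, in each heart assay and genotype in which they had enough counts, and for the summed share of counts of the respiratory chain genes. Of these 142 sets, 11 held a mouse whose gap to its nearest neighbour exceeded the critical share of the range in Dixon's test at the 95% level. Chance gives about 1 in 20 sets. RNA-seq of Rpl3l-/- mouse 2 accounted for 5 of the 11, in each case as the highest of its group. That library also had the lowest summed fibroblast and endothelial markers of its group. Cox5b was at 2198 CPM there and at 1669 to 1712 CPM in the other 3 mice, and Ndufb9 at 1610 CPM against 1284 to 1316 CPM. Ndufb7 was at 867 CPM against 654 to 663 CPM, Ndufs7 at 806 CPM against 605 to 636 CPM, and Ndufaf8 at 57.0 CPM against 37.0 to 40.3 CPM.

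The other 6 were spread over groups and assays. In Disome-seq of Rpl3l-/- hearts, Atp5a1 was at 10814 CPM in mouse 3 against 9945 to 9986 CPM, and Ndufv3 at 267 CPM in mouse 1 against 135 to 154 CPM. In RNA-seq of Rpl3l+/+ hearts, Uqcrc1 was at 1755 CPM in mouse 3 against 1958 to 1978 CPM, and Ndufa4l2 at 8.83 CPM in mouse 2 against 10.8 to 11.1 CPM. In Ribo-seq of Rpl3l+/+ hearts, Ndufb7 was at 420.5 CPM in mouse 3 against 378 to 382 CPM, and Sdhaf3 at 7.47 CPM in mouse 4 against 9.08 to 9.39 CPM.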

How the results depend on the processing

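In the heart, numbers of respiratory chain genes called after loss of RPL3L stayed at 0 in RNA-seq, TE, Disome-seq and m6A-seq under every alternative run, and at 0 to 0 with each replicate number left out. They became 1 in Ribo-seq with DESeq2 and 1 with the replicate block (Atp5d both times), and 1 for disomes relative to monosomes with DESeq2 (Ndufb2). Against C2C12 cells the heart kept 34 or 35 higher mRNAs, and 23 to 31 lower TE values. In C2C12 mRNA, RPL3 OE against control gave 5 genes, 2 with DESeq2 and 1 to 5 with each culture left out. RPL3L OE against RPL3 OE gave 7, and 4 to 7 with each culture left out (4 without RPL3L OE culture 3), and RPL3L OE against control gave 3, or 2 to 3. In TE, RPL3L OE against control gave 1, and 0 to 2 with each culture left out. RPL3L OE against RPL3 OE gave 0, but 1 with library totals, 1 with only the 2 groups compared, and 0 to 2 with each culture left out (2 without RPL3 OE culture 3). The cause was not tested. Of values for single genes, 539 kept direction and side of the threshold, 49 lost the call, 11 gained it and 0 changed sign.

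Counts over all transcripts that moved by over 1.5 times were 2 and 11 (heart RNA-seq, DESeq2), 86 and 185 (heart Ribo-seq, DESeq2) or 19 (without airway-high libraries), 0 and 22 (heart TE, DESeq2), 0 and 25 (disomes relative to monosomes, DESeq2), 0 and 2 (Disome-seq, block), 1336 and 874 (RPL3L OE against control mRNA, DESeq2), 7 and 21 (RPL3 OE against control TE, DESeq2) or 13 (library totals), and 41 and 64 (RPL3L OE against RPL3 OE TE, library totals) or 69 (block).

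Replicate numbers did not pair all RNA-seq and Ribo-seq libraries. In the heart, r was 0.41 to 0.56 in the 4 Rpl3l+/+ pairs and 0.76 and 0.65 in Rpl3l-/- mice 1 and 4, each best with its own number, but -0.71 and -0.76 in Rpl3l-/- mice 2 and 3, each of which correlated best with the other. Heart TE fits without Rpl3l-/- number 2 or 3 may thus have left out libraries of different mice. The block in heart TE may likewise have joined libraries of different mice. In C2C12 cells r was -0.02 to 0.13. Numbers did not pair RNA-seq libraries across groups (0 of 13), nor all Ribo-seq (2 of 4) or Disome-seq libraries (2 of 4) across genotypes. A replicate block within 1 assay thus joins different mice or cultures. With the replicate block, the numbers of genes called were 1 in heart Ribo-seq (Atp5d, adjusted p = 0.0477 from edgeR), 0 in heart RNA-seq, TE and Disome-seq, 2, 4 and 6 in C2C12 mRNA for RPL3L OE against control, RPL3 OE against control and RPL3L OE against RPL3 OE, 1 in TE of RPL3L OE against RPL3 OE, and 29 in TE of heart against C2C12 cells. For m6A 8 peaks were called, 0 of them on these genes. Disome totals of 39016 to 175747 leave 23 genes testable and standard errors of up to 0.39.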

Other observations

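Genes related to the respiratory chain were counted in the same comparisons, from lists of other respiratory chain assembly and ubiquinone synthesis genes (24 in the table), the tricarboxylic acid cycle (8) and regulators of mitochondrial genes (8). After loss of RPL3L 0 of them were called by edgeR in heart RNA-seq, Ribo-seq, TE, Disome-seq or disomes relative to monosomes. TE in the heart against control C2C12 cells was lower for 9 of the 24 (25.2% of all transcripts were) and higher for 1, Ttc19 (0.59 ± 0.17), which helps to maintain complex III. Coq9, which is needed for ubiquinone synthesis, had a TE lower by a log2 value of -0.91 ± 0.13. Of the tricarboxylic acid cycle genes 2 of 8 were lower, Mdh2 (-1.06 ± 0.13) and Suclg1 (-0.50 ± 0.14), and the median was 0.09, against -0.96 for the respiratory chain genes. The difference between these lists was not tested.

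In C2C12 mRNA single genes of these lists were called, where 9.26% of all transcripts were for RPL3L OE against control, 16.1% for RPL3 OE against control and 27% for RPL3L OE against RPL3 OE. Tmem70, an assembly factor of ATP synthase, had a log2 fold change of 0.27 ± 0.06 for RPL3L OE against control, and Mdh2 one of -0.14 ± 0.03. In RPL3 OE cells the ubiquinone synthesis genes Coq3 (0.36 ± 0.10) and Coq6 (0.28 ± 0.09) were higher than in control cells. In RPL3L OE against RPL3 OE cells 1 of 24 was higher and 4 lower, among them Coq6 (-0.56 ± 0.11). Nrf1 mRNA was higher in RPL3L OE than in control cells (0.20 ± 0.06), while its TE was lower (-0.42 ± 0.10).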
